A study of Homo sapiens with 12 samples.

Results

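Promoter-annotated regions are the rows of a strand-resolved read count table that the submitters' annotation places at the promoter of a named transcript. They were taken by that annotation alone, in all 12 libraries, with no measured value used. Of 5254113 rows, 84841 carried the annotation, and 136 of them lay near the start of chromosome 21, before the limit set for the class, and were left out. The remaining 84705 rows made up 1.61% of rows and held 2463981 reads, 3.46% of all reads. The last row before the limit spanned 10521355 to 10521426 and held 1 read, and the first row past it spanned 13407208 to 13407357 and held 0. Row centres lay from 1000 bp before to 100 bp after the annotated start site. The rows were split by strand: 46038 lay on the strand of the named transcript (transcript-strand rows), 37895 on the opposite strand (other-strand rows), and 772 had no strand that could be assigned.

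The libraries came from NCI-H1944, a human lung adenocarcinoma cell line, and held RNA pulled down with J2, an antibody that binds double-stranded RNA. The cells were either wild type for IFNAR1 (label SCR) or knocked out for it (label IFNAR1sg); IFNAR1 is a subunit of the type I interferon receptor, and the labels do not say whether the knockout was a clone or a pool. Each genotype had 3 groups of 2 libraries. All cells had 48 h of DMSO or of MPS1i (the MPS1 kinase inhibitor BAY-1217389 at 100 nM), a washout and 24 h of further culture, in which the IFNb groups received recombinant interferon beta at 5 ng/ml. The stated question was which of the RNAs forming double strands after pulsed MPS1 inhibition need type I interferon. Input libraries were not analysed here, and a change can reflect the amount of an RNA, its double-stranded share or both, and in bulk libraries more cells making an RNA cannot be told apart from more RNA per cell.

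A promoter is the stretch of DNA at which transcription of a gene begins, and RNA is often made from it in both directions. Outward transcripts on the opposite strand are usually short and rapidly degraded by the nuclear exosome, and where neighbouring genes face away from each other a single promoter can serve both. RNA from both strands can pair into the double strands that J2 binds. Type I interferons signal through their receptor to a complex of transcription factors that binds the interferon-stimulated response element in promoters of antiviral genes such as MX1 and ISG15.

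The annotated rows were short and mostly empty. Their median length was 140 bp, the longest had 228792 bp, and 49050 (57.9%) held at least 1 read. The 1308 rows longer than 1100 bp reached past the promoter window and held 45.8% of the reads. Rows that overlapped a same-strand exon by 1 base or more were 7.22% of transcript-strand rows but held 73.4% of that strand's reads, and 681 rows sharing 1 or 2 such bases held 26%. On the other strand 1.65% of rows shared an exon base and held 32.8% of the reads. A value for such a row can include reads of the adjoining exon. Where rows named a transcript whose strand could be read both from distances in the table and from the annotation, the strands were the same for 11534 of 11556 transcripts (99.81%). The kit marks strand, but the sources used here do not give how strands were counted.

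Libraries held 3739443 to 7430687 reads. The 2 SCR IFNb libraries stood apart in how many rows they touched: 9265 and 9380 promoter-annotated rows had a read there, against 12365 to 19221 in the other 10 libraries. The part of that difference in the IFNb results below was not tested, and no IFNb result in SCR can be given without both libraries. The 3 promoter-annotated rows of IFNAR1 itself held 2 reads in all, so they check nothing about the knockout. The row with the most reads, 469715, lay on the mitochondrial chromosome at 888-2589 of the plus strand over ribosomal RNA genes. Promoter-annotated rows of 12 immune and 10 fibroblast marker genes were too low to be tested.

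The 8 sequences that follow are the 250 bases before the start site of promoters whose rows the results turn on, from RefSeq on GRCh38.p14 and read 5′ to 3′ on the strand of the transcript. Capitals mark matches to GAAANNGAAA on either strand, the core letters of the interferon-stimulated response element; overlapping matches run together. The first 6 hold a match and the last 2 do not, and all 8 rows rose with IFNb in SCR cells. Of 35116 RefSeq windows of 250 bases before to 50 after a start site, 1255 (3.57%) hold the motif.
MX1 (GRCh38.p14 chr21:41431800-41432049, plus strand): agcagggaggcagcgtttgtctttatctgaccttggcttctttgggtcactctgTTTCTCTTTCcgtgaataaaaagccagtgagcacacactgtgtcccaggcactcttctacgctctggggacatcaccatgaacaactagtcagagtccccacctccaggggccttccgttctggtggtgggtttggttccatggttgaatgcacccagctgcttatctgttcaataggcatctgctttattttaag
MYD88 (GRCh38.p14 chr3:38138411-38138660, plus strand): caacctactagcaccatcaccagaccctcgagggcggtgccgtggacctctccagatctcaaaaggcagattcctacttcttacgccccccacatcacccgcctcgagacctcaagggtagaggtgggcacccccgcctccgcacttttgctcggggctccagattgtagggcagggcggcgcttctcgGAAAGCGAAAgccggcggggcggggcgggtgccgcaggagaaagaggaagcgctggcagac
SEC16B (GRCh38.p14 chr1:177970245-177970494, minus strand): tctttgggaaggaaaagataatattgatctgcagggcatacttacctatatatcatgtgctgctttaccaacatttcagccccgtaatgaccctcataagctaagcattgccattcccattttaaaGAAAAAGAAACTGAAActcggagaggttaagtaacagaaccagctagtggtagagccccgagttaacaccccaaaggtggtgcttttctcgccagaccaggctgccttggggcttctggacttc
ISG15 (GRCh38.p14 chr1:1013247-1013496, plus strand): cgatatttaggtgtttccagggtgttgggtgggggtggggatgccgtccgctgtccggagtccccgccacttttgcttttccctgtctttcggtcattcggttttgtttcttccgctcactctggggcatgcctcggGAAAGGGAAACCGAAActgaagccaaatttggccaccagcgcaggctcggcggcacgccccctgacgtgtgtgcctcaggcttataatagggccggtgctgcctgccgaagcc
IFIT3 (GRCh38.p14 chr10:89327747-89327996, plus strand): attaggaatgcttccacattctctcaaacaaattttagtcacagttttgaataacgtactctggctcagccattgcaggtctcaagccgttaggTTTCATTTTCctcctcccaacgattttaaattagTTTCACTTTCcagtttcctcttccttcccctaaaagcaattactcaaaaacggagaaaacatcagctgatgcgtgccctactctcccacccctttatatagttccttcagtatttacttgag
IFITM3 (GRCh38.p14 chr11:320861-321110, minus strand): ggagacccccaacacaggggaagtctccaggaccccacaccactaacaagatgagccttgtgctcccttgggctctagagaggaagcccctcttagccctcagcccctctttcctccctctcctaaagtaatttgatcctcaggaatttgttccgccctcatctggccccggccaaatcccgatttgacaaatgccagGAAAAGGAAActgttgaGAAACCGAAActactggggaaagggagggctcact
MLKL (GRCh38.p14 chr16:74700863-74701112, minus strand): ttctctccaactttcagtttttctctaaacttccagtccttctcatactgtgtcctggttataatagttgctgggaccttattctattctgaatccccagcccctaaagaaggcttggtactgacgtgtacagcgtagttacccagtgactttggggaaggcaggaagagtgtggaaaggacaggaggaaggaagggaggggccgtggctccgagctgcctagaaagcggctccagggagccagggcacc
BATF2 (GRCh38.p14 chr11:64990278-64990527, minus strand): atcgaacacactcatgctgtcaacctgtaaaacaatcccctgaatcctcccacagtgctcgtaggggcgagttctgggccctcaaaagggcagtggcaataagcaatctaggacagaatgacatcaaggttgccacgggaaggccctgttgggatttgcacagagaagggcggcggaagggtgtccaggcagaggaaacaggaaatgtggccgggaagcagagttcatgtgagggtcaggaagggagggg
The matches began 196 bp before the start site for MX1, 61 bp for MYD88, 124 and 118 bp for SEC16B, 113 and 107 bp for ISG15, 156 and 122 bp for IFIT3, and 52 and 35 bp for IFITM3. A match describes these letters only. No match says only that the letters are not in that window.

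Promoter-annotated rows took a larger share of the J2 library after MPS1i. The same held after IFNb in SCR cells and, on the other strand, in IFNAR1sg. On the transcript strand the share in SCR was 1.78% ± 0.0467 (SD, n = 2) with DMSO, 2.51% ± 0.0695 with MPS1i and 2.36% ± 0.0317 with IFNb. In IFNAR1sg it was 1.99% ± 0.125, 2.35% ± 0.201 and 2.01% ± 0.0278. A good part of the transcript-strand share was the single mitochondrial row: without it the SCR means were 1.28%, 1.54% and 1.71% and the IFNAR1sg means 1.41%, 1.51% and 1.53%. Other-strand rows held 0.876% ± 0.059, 1.16% ± 0.0613 and 1.24% ± 0.0429 of the SCR libraries, and 0.868% ± 0.0155, 1.13% ± 0.0922 and 0.964% ± 0.0623 of the IFNAR1sg libraries. Both MPS1i libraries lay above both DMSO libraries on each strand in each genotype, and both IFNb libraries did so in SCR. In IFNAR1sg both IFNb libraries lay above DMSO on the other strand (1.01% and 0.92% against 0.857% and 0.879%). Their transcript-strand shares overlapped DMSO, but without the mitochondrial row they lay above it (1.56% and 1.51% against 1.37% and 1.45%). Rows that shared no exon base held much less on the transcript strand, with SCR means of 0.505%, 0.613% and 0.534% and IFNAR1sg means of 0.543%, 0.648% and 0.557%, so the SCR IFNb mean lay close to DMSO there. With 2 libraries against 2, an exact permutation test cannot give a two-sided p below 0.33, so no test was made on the shares.

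**Figure D1:**
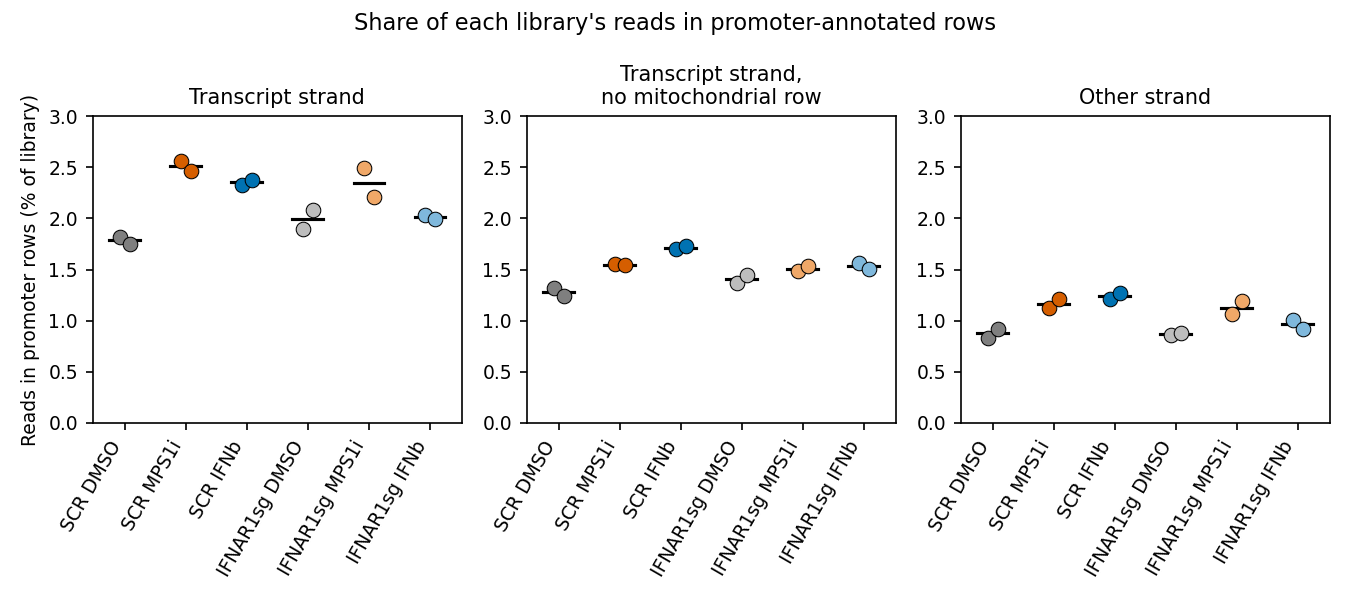
Share of each library's reads (percent, vertical axis) in promoter-annotated rows of the transcript strand, of the transcript strand without the mitochondrial row, and of the other strand; points are libraries and lines are group means of 2. MPS1i groups sit above DMSO on the other strand in both genotypes (1.16% against 0.876% in SCR), and the IFNb group sits clearly above DMSO on the other strand in SCR (1.24%), less so in IFNAR1sg (0.964% against 0.868%).

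Sums over sparse rows take in the rows that were too low to be tested. Among rows of at most 300 bp with at most 100 reads, 22351 other-strand rows overlapped no annotated gene on their own strand. Their density in SCR was 0.0955 ± 0.00393 CPM per kb (SD, n = 2; CPM is reads scaled to library size and to the library factors) with DMSO, 0.256 ± 0.0101 with MPS1i and 0.125 ± 0.00373 with IFNb. In IFNAR1sg it was 0.102 ± 0.0104, 0.265 ± 0.00198 and 0.104 ± 0.00432. These other-strand rows were thus 2.68 times as dense after MPS1i as with DMSO in SCR and 2.6 times in IFNAR1sg, whereas the IFNb ratios were 1.3 and 1.02. The 22801 sparse transcript-strand rows without a gene on their strand had ratios of 2 for MPS1i and 1.5 for IFNb in SCR, and 1.81 and 1.07 in IFNAR1sg. With rows over a gene included, sparse transcript-strand rows (38985) had ratios of 1.66 for MPS1i and 1.4 for IFNb in SCR, and 1.5 and 1.07 in IFNAR1sg. For all sparse other-strand rows (32526) these were 2.07 and 1.19 in SCR, and 1.91 and 0.983 in IFNAR1sg. The MPS1i rise was not particular to promoters: 2199689 sparse intergenic rows had ratios of 2.18 in SCR and 2.33 in IFNAR1sg. For IFNb in SCR the ratio was 1.33 for all sparse promoter-annotated rows, 0.776 for intergenic rows and 0.536 for 2260555 intronic rows. It was 1.76 for 1680 rows annotated 5', 1.3 for 14908 annotated 3', 1.12 for exonic, 1.1 for non-coding and 1 for transcript-end rows, so ratios above 1 were not particular to promoters either.

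The strands differed in where their reads lay within the promoter window. On the transcript strand, among rows of at most 300 bp that shared no exon base, the density with DMSO in SCR rose from 0.133 ± 0.00398 CPM per kb (SD, n = 2) in the bin 1000 bp before the start site to 1.79 ± 0.167 in the last 100 bp before it. In that last bin it was 2.53 ± 0.0706 with MPS1i and 2.89 ± 0.0293 with IFNb in SCR, and 2.16 ± 0.184, 2.77 ± 0.0416 and 2.45 ± 0.0524 in IFNAR1sg. The 354 rows centred from 0 to 99 bp past the start site measured 1.85 ± 0.259, 3.19 ± 0.204 and 4.02 ± 0.0193 in SCR, so IFNb exceeded DMSO there by more than the spread of the libraries. The other strand had no such slope: with DMSO in SCR it stayed between 0.112 and 0.154 across the window. With MPS1i it lay between 0.221 and 0.352 in SCR and between 0.243 and 0.352 in IFNAR1sg, and at 1000 bp before the start site it measured 0.296 ± 0.0145 against 0.137 ± 0.0283 with DMSO in SCR and 0.294 ± 0.00992 against 0.129 ± 0.000577 in IFNAR1sg.

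**Figure D2:**
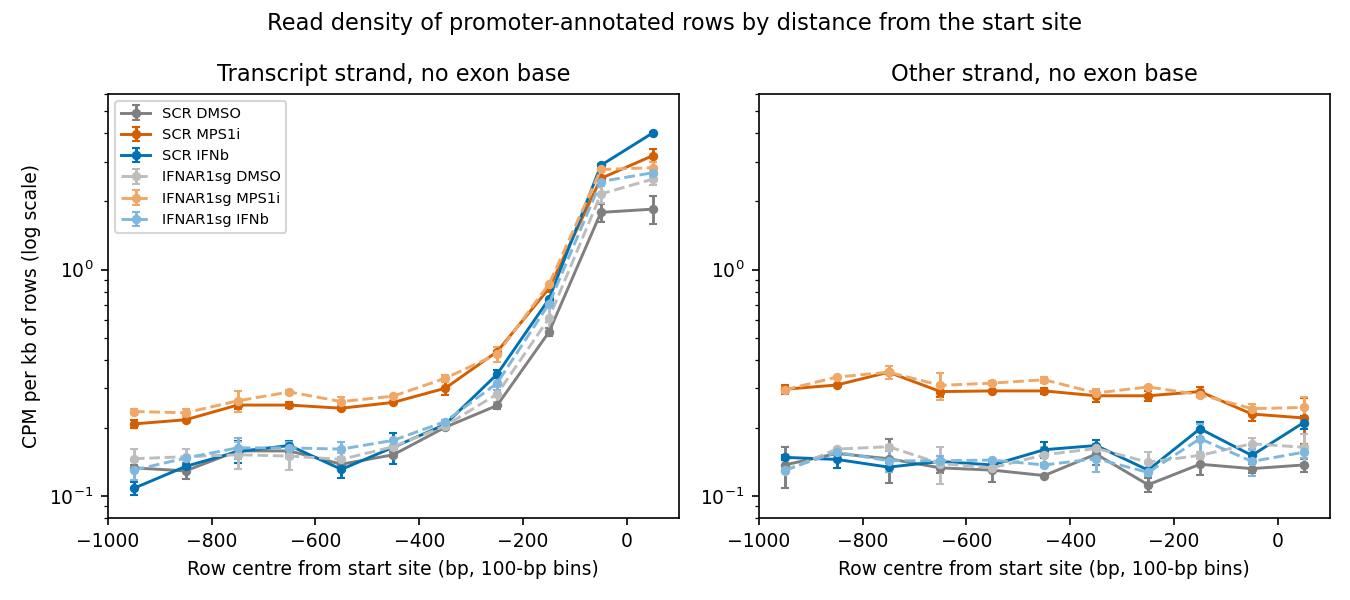
Read density (CPM per kb, log axis) of rows of at most 300 bp sharing no exon base, in 100-bp bins of the distance from row centre to start site, for the transcript strand and the other strand; points are group means of 2 libraries with SD, solid lines SCR and dashed lines IFNAR1sg. The transcript strand climbs from 0.133 to 1.79 CPM per kb toward the start site with DMSO in SCR, while the other strand stays between 0.112 and 0.154 and is higher with MPS1i in both genotypes.

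Only 2904 annotated rows (1782 transcript-strand, 1084 other-strand and 38 unassigned) had enough reads to be tested among the 89111 rows of the table that passed the filter. A row can pass through the group in which it is high, so the counts below describe tested rows and not all annotated rows. After MPS1i in SCR, 248 transcript-strand rows rose and 29 fell at an adjusted p under 0.05, with a median log2 change of 0.52. On the other strand 182 rose and 22 fell, with a median of 0.54. Of all tested rows in the table, 9.5% rose and 8% fell, with a median of -0.03. Of tested promoter-annotated rows 14.9% rose and 1.79% fell, against 8.22% and 9.6% of intronic rows, 13.2% and 5.18% of intergenic rows and 9.42% and 4.52% of rows at transcript ends. Without the library factors the other-strand counts were 129 and 36. DESeq2 called 136 transcript-strand and 91 other-strand rows higher, and with no filter on low counts edgeR called 102 and 76. Leaving out SCR MPS1i replicate 2 gave 138 and 96 rows higher and 12 and 7 lower, leaving out SCR DMSO replicate 2 gave 151 transcript-strand rows higher, leaving out SCR DMSO replicate 1 gave 113 other-strand rows higher and 18 and 13 lower, and leaving out SCR MPS1i replicate 1 gave 16 and 11 lower.

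**Figure D3:**
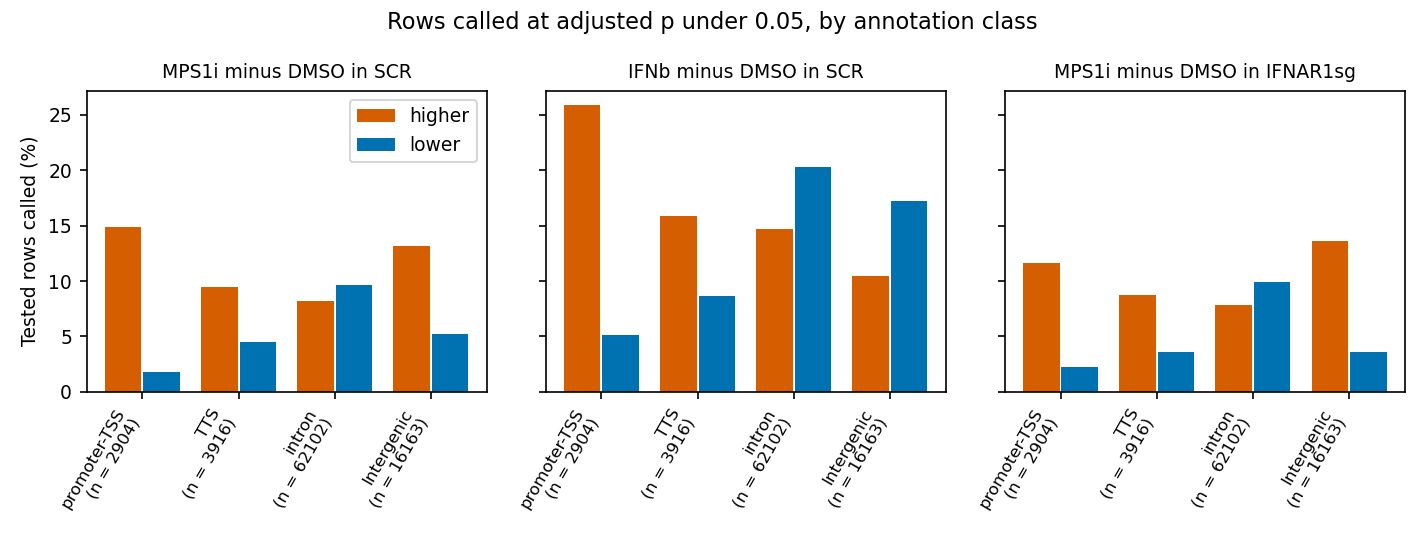
Percent of tested rows called higher (left bars) and lower (right bars) in each annotation class for MPS1i in SCR, IFNb in SCR and MPS1i in IFNAR1sg. Classes hold 2904 promoter, 3916 transcript-end, 62102 intronic and 16163 intergenic rows. Promoter rows show the largest higher share among these classes for both SCR comparisons (14.9% and 25.9%) and the smallest lower share in all 3 comparisons.

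Interferon-stimulated genes led the transcript-strand rows. Of 90 listed genes, 68 had transcript-strand rows (200 rows), and 21 rows of 16 genes were tested. After MPS1i in SCR 15 of the 21 rose (median log2 2.94), and after IFNb 18 rose (median 3.21). In IFNAR1sg, 8 rose after MPS1i (median 1.72) and 4 after IFNb (median 1.57), those of MX2, MX1, CMPK2 and USP18, a protease that removes ISG15. The last 2 calls were lost without IFNAR1sg DMSO replicate 1 (adjusted p = 0.153 for CMPK2 and 0.579 for USP18) or IFNAR1sg IFNb replicate 1 (0.199 and 0.412), CMPK2 also without IFNAR1sg DMSO replicate 2 (0.35) and USP18 without IFNAR1sg IFNb replicate 2 (0.0899). Among all tested rows, 9.5% and 15% rose after MPS1i and IFNb in SCR, and 9.41% and 0.547% in IFNAR1sg. The list was drawn up with results of these data known, so its direction is a description.

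MX2, a dynamin-like GTPase that restricts viruses at the nuclear pore, had the row with the smallest p of the transcript strand after MPS1i in SCR (chromosome 21, 41361813-41361996, plus strand, sharing 54 exon bases). It held 2 and 1 reads with DMSO, 66 and 97 with MPS1i and 203 and 219 with IFNb in SCR. In IFNAR1sg it held 4 and 4, 25 and 31, and 39 and 37 reads. Every treated library thus lay above every DMSO library, and the SCR IFNb pair lay above all others. The ratio to DMSO in SCR was 77 for MPS1i (95% exact binomial interval 25.9 to 377, counting error only; adjusted p = 4.8e-19) and 294 for IFNb (99.9 to 1430; adjusted p = 2.5e-29). In IFNAR1sg the log2 changes were 2.64 ± 0.46 (adjusted p = 1.4e-05) and 3.02 ± 0.44 (adjusted p = 2e-06).

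MX1, the related cytoplasmic GTPase, showed the same order in SCR. Its row (chromosome 21, 41431684-41432031, plus strand, 318 exon bases) measured 0.954 and 0.951 CPM with DMSO, 20.2 and 15.5 with MPS1i and 45 and 35.1 with IFNb in SCR. The IFNAR1sg values were 0.91 and 0.261, 9.39 and 8.19, and 7.37 and 7.92 CPM. The treated groups did not overlap DMSO in either genotype, and in SCR the IFNb pair lay above the MPS1i pair. Log2 changes were 4.19 ± 0.37 (MPS1i, adjusted p = 2.3e-15) and 5.36 ± 0.35 (IFNb, adjusted p = 1.9e-22) in SCR, and 3.98 ± 0.44 (adjusted p = 3.4e-11) and 3.78 ± 0.44 (adjusted p = 2.2e-09) in IFNAR1sg.

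OAS2 makes the 2-5A messenger that activates RNase L when it senses double-stranded RNA. Its row (chromosome 12, 112977704-112978392, plus strand, no exon base) held 2 and 5 reads with DMSO, 48 and 49 with MPS1i and 54 and 47 with IFNb in SCR, and 3 and 5, 29 and 40, and 12 and 26 in IFNAR1sg. All treated libraries were above all DMSO libraries. The log2 change after MPS1i was 4.26 ± 0.49 in SCR (adjusted p = 1.4e-10) and 2.94 ± 0.51 in IFNAR1sg (adjusted p = 1.3e-05), and after IFNb in SCR 4.85 ± 0.48 (adjusted p = 1.5e-13).

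ISG15, a ubiquitin-like modifier, had 3 and 0 reads with DMSO, 18 and 26 with MPS1i and 29 and 26 with IFNb in SCR, ratios of 20.8 (6.66 to 105) and 38.3 (12.4 to 191). CMPK2, a mitochondrial nucleotide kinase, had 1 and 1, 7 and 15, and 24 and 30 reads there, ratios of 15.6 (3.83 to 137) and 56.4 (14.9 to 478). IFIT3, which helps IFIT1 hold foreign RNA, rose by 2.94 ± 0.60 (MPS1i, adjusted p = 0.00017) and 4.09 ± 0.56 (IFNb, adjusted p = 1e-08) in its first row. IFITM3, a membrane protein that hinders viral fusion, rose by 2.80 ± 0.67 (adjusted p = 0.00161) and 4.42 ± 0.60 (adjusted p = 7.1e-09). IRF7, the regulator of interferon genes, rose by 3.12 ± 0.69 (adjusted p = 0.00059) and 4.45 ± 0.64 (adjusted p = 3.9e-08). None of ISG15, IFIT3 and IFITM3 passed in these rows after MPS1i in IFNAR1sg, where their log2 values were 1.33, 1.29 and 1.04 with adjusted p of 0.198, 0.0774 and 0.194; for MPS1i the difference between genotypes did not pass either, with adjusted p of 0.589, 0.744 and 0.756. IRF7 and CMPK2 passed there: IRF7 held 1 and 0 reads with DMSO and 12 and 12 with MPS1i in IFNAR1sg, a ratio of 22 (3.59 to 904), and its call was lost without IFNAR1sg DMSO replicate 2 (adjusted p = 0.0832). Listed rows that passed in neither SCR comparison were those of PSMB10 (-0.60 and 0.32), RNF213 (1.28 and 1.20) and an IFIT3 row at 89332344 of 13 reads with MPS1i and 10 with IFNb against 2 with DMSO.

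**Figure D4:**
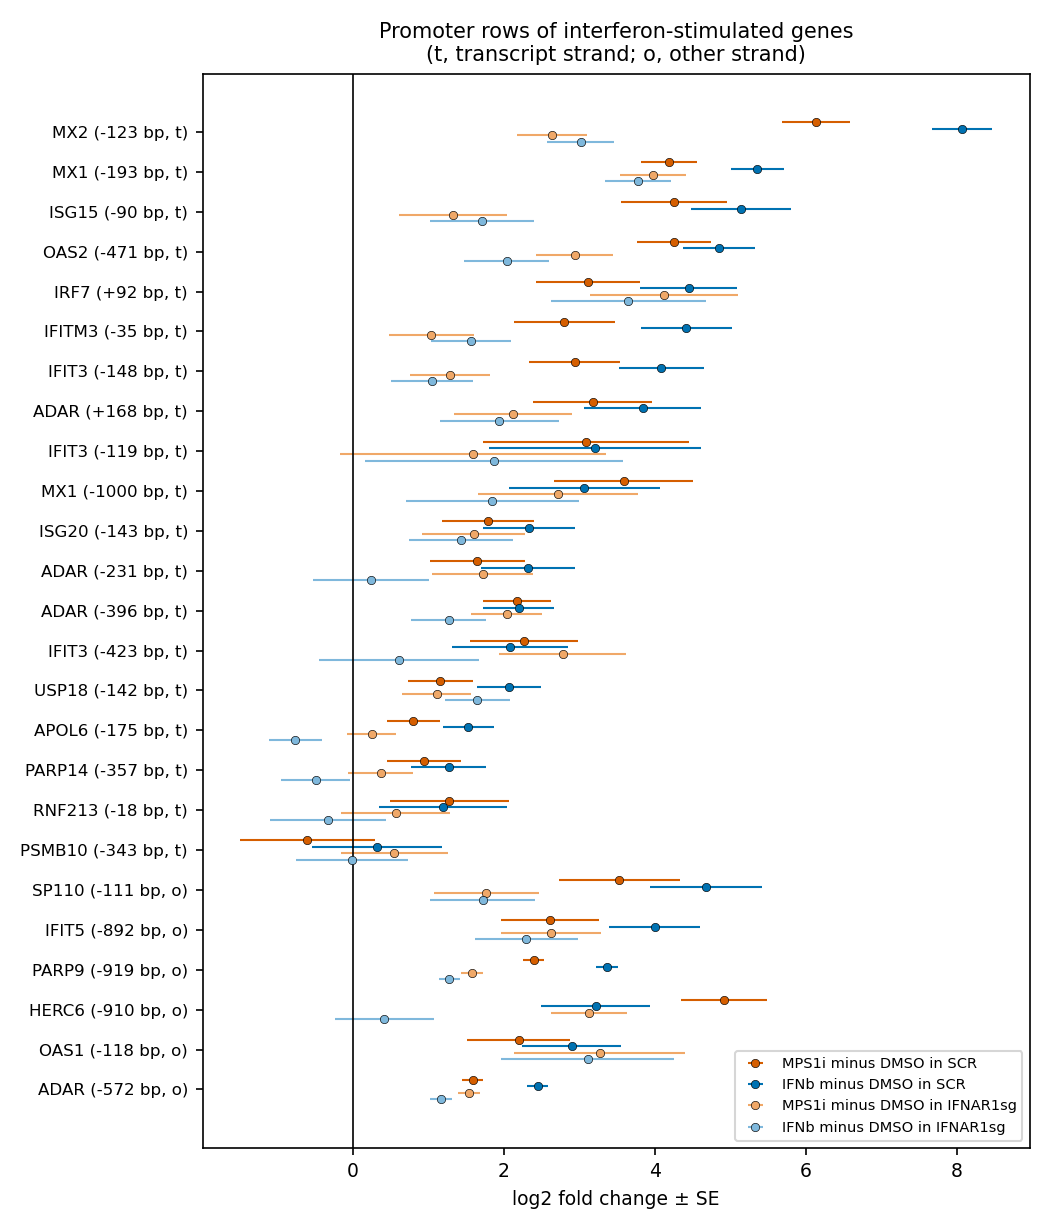
Log2 changes with standard errors (horizontal axis) of 25 tested interferon-list rows in the 4 comparisons with DMSO, MPS1i or IFNb in SCR or IFNAR1sg; 3 rows with a DMSO group at 0 reads are left out. Most SCR points lie right of 0 and, for MX2, right of the IFNAR1sg points (6.14 and 8.07 against 2.64 and 3.02).

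Among other transcript-strand rows, MLKL, the executioner of necroptosis, measured 4.5 and 5.39 CPM with DMSO, 27.8 and 27.1 with MPS1i and 59.9 and 47.1 with IFNb in SCR (chromosome 16, 74700960-74701397, minus strand). In IFNAR1sg it measured 8.74 and 5.35, 15.5 and 9.53, and 14.7 and 11 CPM. The 3 SCR groups stood fully apart, and the IFNAR1sg groups lay close together. Log2 changes in SCR were 2.47 ± 0.27 (adjusted p = 1e-11) and 3.44 ± 0.26 (adjusted p = 8.2e-19). The MPS1i change in IFNAR1sg was 0.85 ± 0.26 (adjusted p = 0.0169), which was lost without IFNAR1sg DMSO replicate 2 (0.51, adjusted p = 0.37) or IFNAR1sg MPS1i replicate 1 (0.50, adjusted p = 0.324).

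MYD88, the adaptor of Toll-like and interleukin-1 receptors, had a row that ended within its promoter (chromosome 3, 38137538-38138552, plus strand). It measured 0.954 and 1.9 CPM with DMSO, 15.4 and 11.5 with MPS1i and 7 and 6.15 with IFNb in SCR, and 0.728 and 1.04, 10.8 and 7.92, and 2.59 and 1.53 CPM in IFNAR1sg. Here the MPS1i pair was the highest of each genotype. The MPS1i change was 3.23 ± 0.39 in SCR (adjusted p = 9.5e-10) and 3.34 ± 0.43 in IFNAR1sg (adjusted p = 8e-09). A row annotated to MIR616, in the gene of the stress transcription factor DDIT3, also rose with MPS1i in both genotypes (3.21 ± 0.37, adjusted p = 1.2e-10, and 1.97 ± 0.33, adjusted p = 6.2e-06), while its IFNb value in SCR was 0.84 ± 0.50 (adjusted p = 0.189).

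**Figure D5:**
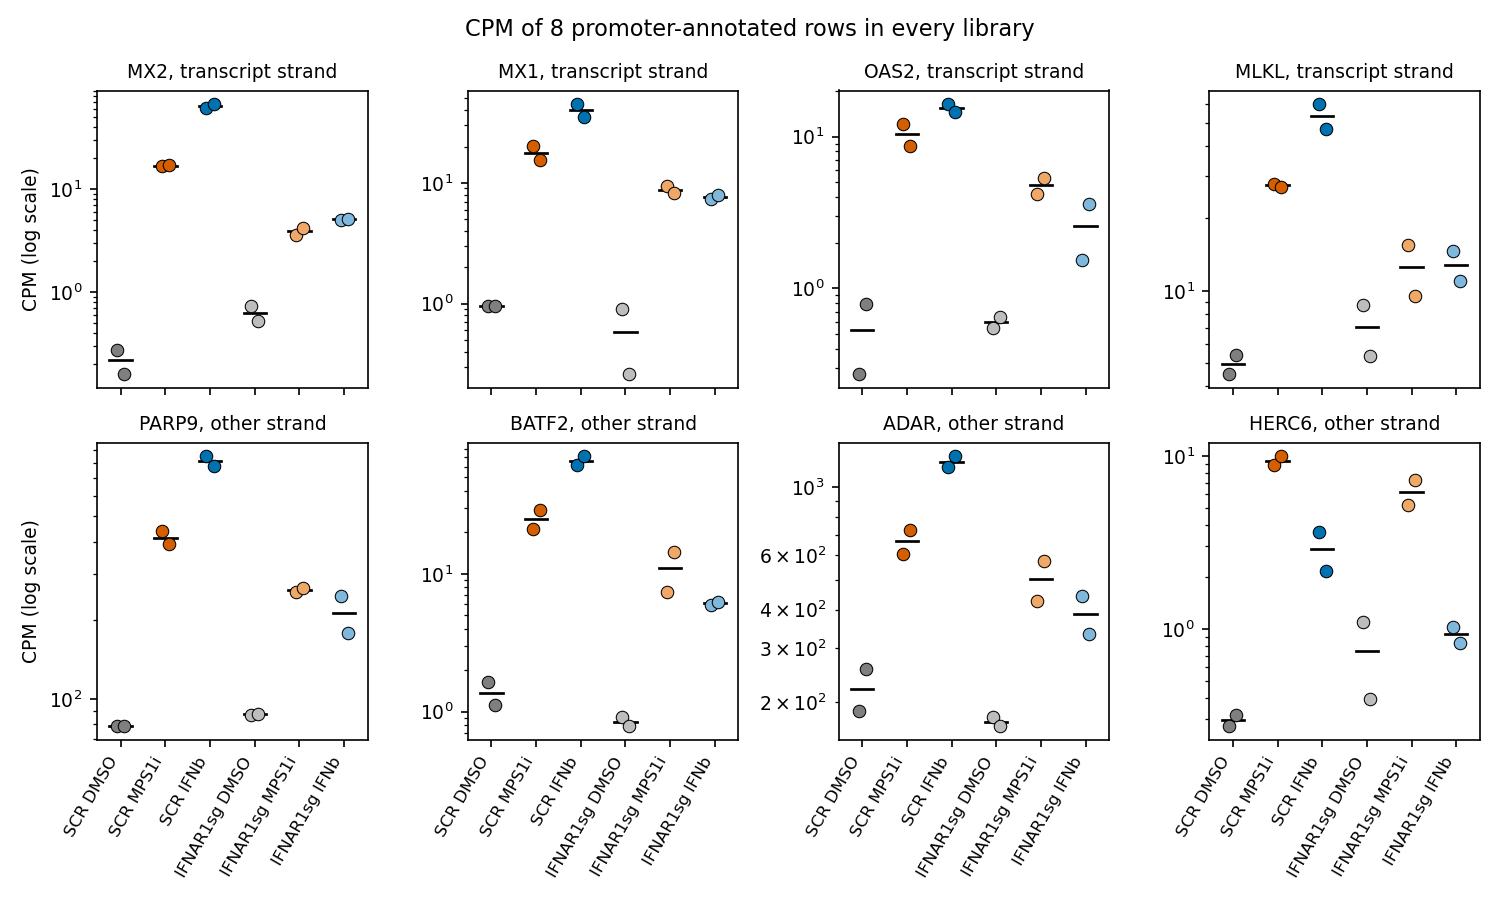
Level (CPM, log axis) in each of the 12 libraries for 4 transcript-strand rows (MX2, MX1, OAS2, MLKL) and 4 other-strand rows (PARP9, BATF2, ADAR, HERC6), grouped by genotype and treatment. DMSO libraries are lowest in SCR in every panel, and HERC6 is the 1 row whose SCR MPS1i pair (8.85 and 10 CPM) lies above its IFNb pair (3.65 and 2.15).

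Rows on the other strand often belonged to a neighbour that faces away from the named gene. PARP9 and DTX3L, an ADP-ribosyltransferase and the ubiquitin ligase it pairs with, share a promoter, and the row annotated to PARP9 lay on the DTX3L side (chromosome 3, 122565547-122565859, plus strand, 1 exon base). It measured 78.5 and 78.6 CPM with DMSO, 438 and 391 with MPS1i and 849 and 779 with IFNb in SCR. In IFNAR1sg it measured 87 and 87.4, 257 and 266, and 247 and 178 CPM. No group overlapped its DMSO group, and the IFNAR1sg treated libraries lay between the SCR DMSO and SCR MPS1i levels. Log2 changes were 2.40 ± 0.14 (adjusted p = 3.8e-24) and 3.37 ± 0.15 (adjusted p = 9.2e-33) in SCR and 1.58 ± 0.14 (adjusted p = 7.1e-15) and 1.28 ± 0.14 (adjusted p = 1.2e-10) in IFNAR1sg.

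BATF2, an interferon-induced transcription factor, had a 19136-bp row on the opposite strand of its promoter (chromosome 11, 64987824-65006959, plus strand). It measured 1.64 and 1.11, 21 and 28.9, and 61.2 and 71.4 CPM in SCR with DMSO, MPS1i and IFNb, and 0.91 and 0.782, 7.37 and 14.5, and 5.95 and 6.25 CPM in IFNAR1sg. The log2 change after MPS1i was 4.16 ± 0.33 in SCR (adjusted p = 1.8e-17) and 3.68 ± 0.39 in IFNAR1sg (adjusted p = 7.5e-12), and after IFNb in SCR 5.56 ± 0.32 (adjusted p = 7.8e-26). ADAR, which edits adenosine in double-stranded RNA, had a 49870-bp row on the other strand that lay over 9691 exon bases of the opposite strand (chromosome 1, 154581891-154631760, plus strand). It measured 187 and 256, 606 and 727, and 1162 and 1262 CPM in SCR. Log2 changes were 1.59 ± 0.14 (MPS1i, adjusted p = 2e-15) and 2.45 ± 0.14 (IFNb, adjusted p = 2.8e-25).

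HERC6, an interferon-induced ubiquitin ligase of the HERC family, had an other-strand row with no annotated gene on that strand (chromosome 4, 88377236-88378423, minus strand). It held 2 and 2 reads with DMSO, 35 and 57 with MPS1i and 12 and 7 with IFNb in SCR, and 6 and 3, 36 and 54, and 8 and 6 in IFNAR1sg. MPS1i gave the highest pair in both genotypes, by 4.92 ± 0.57 (adjusted p = 1.4e-10) and 3.13 ± 0.50 (adjusted p = 2.5e-06) over DMSO, and the IFNAR1sg IFNb reads overlapped those with DMSO. A 70100-bp row opposite SYBU, a syntaxin-binding protein gene on chromosome 8, likewise rose with MPS1i in both genotypes (2.71 ± 0.25, adjusted p = 1.2e-14, and 2.61 ± 0.24, adjusted p = 4e-14) with an IFNb value in SCR of 0.65 ± 0.30 (adjusted p = 0.0804). Rows next to 3 other interferon-linked neighbours rose with both treatments in SCR: SMTNL1 on the UBE2L6 side (the conjugating enzyme for ISG15; 3.62 ± 0.40, adjusted p = 2.2e-11, and 5.11 ± 0.37, adjusted p = 3.5e-20), WBP4 on the side of the ETS factor ELF1 (2.38 ± 0.27, adjusted p = 9.9e-11, and 3.38 ± 0.27, adjusted p = 3.8e-18), and BAG1 on the side of CHMP5, an ESCRT-III subunit (1.68 ± 0.16, adjusted p = 5.4e-14, and 2.76 ± 0.16, adjusted p = 4.2e-25). The interferon list had 133 other-strand rows of 59 genes, of which 7 were tested. All 7 rose in SCR with each treatment (medians 2.61 and 3.37), and 6 rose after MPS1i in IFNAR1sg. Some of the 7 calls after MPS1i in SCR were lost without SCR MPS1i replicate 2. Among all tested rows, 9.5% and 15% rose after MPS1i and IFNb in SCR, and 9.41% after MPS1i in IFNAR1sg. A row with few DMSO reads can pass the filter only through a treated group, so these counts are a description.

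Few rows fell with MPS1i. The row with the smallest p was annotated to SNORD4A, a small nucleolar RNA in an intron of RPL23A (chromosome 17, 28721364-28722582, plus strand). It measured 344 and 380 CPM with DMSO, 113 and 144 with MPS1i and 156 and 273 with IFNb in SCR, and 300 and 397, 126 and 154, and 283 and 390 in IFNAR1sg. The MPS1i pairs lay below every DMSO library, by 1.49 (log2; SE 0.16, adjusted p = 1.8e-11) in SCR and 1.32 (SE 0.16, adjusted p = 1.2e-09) in IFNAR1sg. Of 184 tested transcript-strand rows named for a small RNA, 26 rose (14.1%) and 17 fell (9.24%) after MPS1i in SCR, against 222 and 12 of the other 1598; the share that fell was near the 8% of the whole table. SNORA74A, in MATR3, fell by 0.97 ± 0.16 (adjusted p = 2.3e-06). RIMKLB, an enzyme gene for N-acetylaspartylglutamate synthesis, fell by 1.23 ± 0.25 in SCR (adjusted p = 0.00021) and 1.09 ± 0.24 in IFNAR1sg (adjusted p = 0.00066). The antisense gene DLGAP1-AS2 (chromosome 18, 3602603-3603000, plus strand) went from 95.3 and 97.9 CPM with DMSO to 40.4 and 31.9 with MPS1i and 24 and 16.9 with IFNb in SCR. Its log2 values were -1.42 ± 0.18 (adjusted p = 2.8e-09) and -2.24 ± 0.20 (adjusted p = 8.1e-16). The row of MIR508 held 22 and 11 reads with DMSO and 0 and 0 with MPS1i in SCR.

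IFNb in SCR moved more rows than MPS1i. On the transcript strand 481 rows rose and 92 fell (median log2 0.70), and on the other strand 260 rose and 56 fell (median 0.54). Of all tested rows, 15% rose and 18.1% fell, with a median of -0.36, so the median lay above 0 for promoter-annotated rows and below 0 for the table. Among classes 25.9% of promoter rows rose and 5.17% fell, against 14.7% and 20.3% of intronic rows, 10.5% and 17.2% of intergenic rows and 15.9% and 8.68% of transcript-end rows. Rows sharing an exon base carried much of the rise: 289 of 771 rose there on the transcript strand (median 0.89), against 192 of 1011 that shared none (median 0.47). Without library factors the counts were 303 and 151 on the transcript strand and 173 and 101 on the other strand, with medians of 0.39 and 0.22. With no filter on low counts 147 and 87 rose. Leaving out SCR IFNb replicate 1 gave 314 transcript-strand rows higher and 41 lower, with 32 other-strand rows lower; leaving out SCR IFNb replicate 2 gave 308, 47 and 30, and leaving out SCR DMSO replicate 1 gave 49 transcript-strand rows lower.

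Beyond the genes above, GBP1P1, a guanylate-binding protein pseudogene, held 1 and 4 reads with DMSO, 20 and 31 with MPS1i and 134 and 135 with IFNb in SCR, and 2 and 5, 5 and 14, and 19 and 14 in IFNAR1sg. Only the SCR IFNb pair was far above the rest, with a log2 change of 6.73 ± 0.44 (adjusted p = 2.4e-22); reads of its near-identical family members may be shared. SEC16B, which organises exit sites of the endoplasmic reticulum, measured 0.954 and 1.43 CPM with DMSO, 10.6 and 7.58 with MPS1i and 31 and 26.1 with IFNb in SCR, and 0.652 to 3.88 CPM in the IFNAR1sg libraries. Its SCR changes were 2.91 ± 0.41 (adjusted p = 9e-08) and 4.58 ± 0.38 (adjusted p = 4.7e-17). Falls with IFNb in SCR included the noncoding RNAs MIR600HG (-3.49 ± 0.59, adjusted p = 2e-06) and LINC00641 (-1.55 ± 0.26, adjusted p = 2.5e-06). USP32P1, a pseudogene row, had 161 and 127 reads with DMSO and 8 and 7 with IFNb (-3.19 ± 0.35, adjusted p = 5.9e-12). LINC00602 on the other strand fell with IFNb (-1.19 ± 0.21, adjusted p = 6.4e-06) and had an MPS1i value of 0.18 ± 0.19 (adjusted p = 0.528).

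In IFNAR1sg MPS1i again moved many rows and IFNb few. After MPS1i 162 transcript-strand rows rose and 42 fell (median 0.29), and on the other strand 171 rose and 21 fell (median 0.44), against 9.41% higher and 7.85% lower over the table. Of the 433 rows higher after MPS1i in SCR and the 336 higher in IFNAR1sg, 194 were shared, 44.8% and 57.7% of the lists. After IFNb only 10 transcript-strand and 14 other-strand rows rose and 1 unassigned row fell, against 0.547% and 0.132% over the table. These included MX2, MX1, PARP9, BATF2 and ADAR above. Calls on the assigned strands after MPS1i numbered 396 and went to 233 without IFNAR1sg DMSO replicate 1, 183 without IFNAR1sg DMSO replicate 2, 213 without IFNAR1sg MPS1i replicate 2 and 174 with DESeq2. The 24 after IFNb went to 14, 15 and 12 without IFNAR1sg DMSO replicate 1, IFNAR1sg DMSO replicate 2 and IFNAR1sg IFNb replicate 1, and to 37 or 38 without SCR DMSO replicate 1, SCR DMSO replicate 2 or IFNAR1sg MPS1i replicate 1. The replication-dependent histone gene H2AC17 went from 62.8 and 44.7 CPM with DMSO to 188 and 119 with IFNb (1.52 ± 0.18, adjusted p = 4.9e-09), with no overlap.

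The difference between genotypes was tested as an interaction, coded as SCR response minus IFNAR1sg response. For IFNb 252 promoter-annotated rows had a more positive change in SCR (5.11% of the table did) and 64 a more negative one (7.05%), and 243 of the 252 had themselves risen in SCR. On the transcript strand these were 166 and 40 rows, and on the other strand 82 and 23, or 311 in all, which went to 176 and 167 without SCR IFNb replicate 1 or 2, 189 and 185 without IFNAR1sg DMSO replicate 2 or IFNAR1sg IFNb replicate 2, and 62 with no filter on low counts. MX2 (5.05 ± 0.90, adjusted p = 4.2e-05), MLKL (2.54 ± 0.38, adjusted p = 8.5e-07), PARP9 (2.09 ± 0.20, adjusted p = 2.5e-13) and BATF2 (2.72 ± 0.67, adjusted p = 0.0037) were among them. For MX1 the value was 1.58 ± 0.77 (adjusted p = 0.169). For MPS1i 5 of the 2904 tested rows passed, against 0.0617% of the table. TXN, thioredoxin, was the 1 of the 5 whose call held in every fit that left out a library, though it was lost with no filter on low counts (1.27, adjusted p = 1), where MIR6873 was the 1 of the 5 that passed. Its row measured 25.9 and 23.1 CPM with DMSO and 54.3 and 57.3 with MPS1i in SCR, and 35.7 and 39.1 and then 36.3 and 27.8 in IFNAR1sg. Its interaction was 1.41 ± 0.26 (adjusted p = 0.00255). Between genotypes in DMSO 6 rows passed, against 0.0774% of the table: MIR103A1, CAV2 and KRT18 were higher in IFNAR1sg, H2AC17 and SYNGR2 lower, and MIR6873 held no reads in either IFNAR1sg DMSO library against 3 and 18 in SCR. Each of these 6 calls was lost when a single library was left out. Without IFNAR1sg DMSO replicate 2 the adjusted p was 0.607 for CAV2, 0.322 for H2AC17, 0.772 for KRT18, 0.145 for MIR103A1 and 0.494 for MIR6873, and without SCR DMSO replicate 2 it was 0.0813 for H2AC17, 0.128 for KRT18, 0.0653 for MIR103A1, 1 for MIR6873 and 0.903 for SYNGR2. KRT18 was also lost without SCR DMSO replicate 1 (0.0943), and MIR6873 (0.106) and SYNGR2 (0.448) without IFNAR1sg DMSO replicate 1.

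Other-strand rows without an annotated gene on their strand held many of the MPS1i calls. Of 416 tested, 91 rose and 2 fell in SCR (median 0.76), and 101 rose in IFNAR1sg (median 0.71). These are 21.9% and 24.3% higher, against 9.5% and 9.41% of the table and 13.2% and 13.6% of intergenic rows. After IFNb 119 (28.6%) rose and 8 (1.92%) fell in SCR (median 0.80), against 15% and 18.1% of the table, and 8 rose in IFNAR1sg (1.92%, against 0.547%). By comparison 60 of 435 transcript-strand rows without a gene on their strand rose after MPS1i in SCR and 50 in IFNAR1sg. Examples chosen after their values were seen include a row opposite RAB43, a Rab GTPase (chromosome 3, 129122632-129123424, plus strand), with 3 and 1 reads with DMSO, 30 and 34 with MPS1i and 11 and 7 with IFNb in SCR, and 1 and 1, 22 and 23, and 5 and 6 in IFNAR1sg. The MPS1i pairs were the highest in both genotypes (4.43 ± 0.63, adjusted p = 1e-07, in SCR). Opposite TSPAN31, a tetraspanin beside CDK4 (chromosome 12, 57744123-57744896, minus strand), the row rose with MPS1i by 0.92 ± 0.21 (adjusted p = 0.00077) in SCR and 1.60 ± 0.21 (adjusted p = 7e-09) in IFNAR1sg and fell with IFNb in SCR (-1.16 ± 0.26, adjusted p = 0.00025). Its SCR reads were 142 and 124, 164 and 186, and 28 and 29. Opposite MIR3191, by BBC3, the MPS1i changes were 2.10 ± 0.44 (adjusted p = 0.00029) and 1.68 ± 0.41 (adjusted p = 0.00222) and the IFNb value in SCR 0.05 ± 0.60 (adjusted p = 0.959). The nearest genes ending before these rows on the same strand were GP9 (60226 bp away, RAB43 row), CDK4 (2831 bp, TSPAN31 row) and MIR3190 (305 bp, MIR3191 row). Whether RNA ran on from them was not tested.

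Promoter rows and the introns of the same gene had different medians. For 1124 of the 1782 tested transcript-strand rows, intronic rows of the same gene and strand were tested too. After MPS1i in SCR the median promoter row was at 0.54 and the median of the genes' intronic medians at -0.15, and the promoter row lay above its introns in 806. After IFNb these were 0.78 and -0.79, and 887. After MPS1i in IFNAR1sg they were 0.30 and -0.15, and 759. Over all 62102 tested intronic rows the medians were -0.17 (MPS1i in SCR), -0.58 (IFNb in SCR) and -0.13 (MPS1i in IFNAR1sg). Low intronic values were thus not particular to these genes. Among the 613 rows sharing no exon base the promoter row lay above in 433, 464 and 413. At MX2 and MX1 the introns were high too. MX2 introns (5 rows) had medians of 5.37 for MPS1i and 7.06 for IFNb in SCR, against 6.14 and 8.07 for the promoter row. Those of MX1 (11 rows) were 4.13, close to the promoter row at 4.19, and 4.18, against 5.36. Other interferon-list genes differed in order. Intronic values lay above the promoter row for IRF7 (1 row, 5.76 and 6.56) and CMPK2 (2 rows, 5.62 and 7.06). The same held for ISG15 (1 row, 6.29 and 6.89). OAS2 introns (4 rows) were at 4.05, below its promoter row for MPS1i, and 5.31, above it for IFNb. IFIT3 introns (9 rows) were at 3.44, above its first row for MPS1i, and 3.69, below it for IFNb. MLKL introns (8 rows) were at 1.17 and 0.91, below its promoter row. At MDM2, the ubiquitin ligase of p53, the promoter row rose with IFNb in SCR (1.13 ± 0.20, adjusted p = 6e-06) and the median of 36 intronic rows was -1.32. At TXN the promoter row rose by 1.61 ± 0.19 (adjusted p = 6e-11) and 9 intronic rows had a median of -1.16. RIMKLB, whose promoter row fell, had introns with a median of -1.82 over 61 intronic rows.

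At 118 promoters a row of each strand was tested. After MPS1i in SCR the transcript-strand row was called higher at 21 of them and the other-strand row at 14. After IFNb in SCR these were 33 and 37, and after MPS1i in IFNAR1sg 12 and 22. Whether calls fell on both strands more often than these counts alone would give was not tested. Of all tested rows in the table, 9.5% rose after MPS1i in SCR, 15% after IFNb in SCR and 9.41% after MPS1i in IFNAR1sg. After MPS1i in SCR 8 promoters had calls on both, all of them higher (ADAR, CYP27B1, CYREN, INAFM1, INTS15, MIR7703, NR4A2 and WBP4), and ADAR, CYP27B1, NR4A2 and WBP4 did so in IFNAR1sg too. The other-strand rows of ADAR, CYP27B1, INAFM1 and NR4A2 were longer than 1100 bp and so reached past the promoter window. Of the 1084 tested other-strand rows, 354 were longer than 1100 bp. In SCR the MPS1i call was lost for the other strand of CYP27B1 without SCR DMSO replicate 1 or SCR MPS1i replicate 2 (adjusted p up to 0.306), for the transcript strand of INAFM1 without any 1 of the SCR DMSO or SCR MPS1i libraries (up to 0.135), for the transcript strand of MIR7703 without SCR DMSO replicate 2 (0.0524), and for NR4A2 without either of its DMSO or MPS1i libraries on 1 strand or the other (up to 0.308). In IFNAR1sg leaving out a library ended the call of CYP27B1, NR4A2 and WBP4 on at least 1 strand. The calls of the paired ADAR rows held in every such fit. Another transcript-strand row of ADAR (154608513-154608745, minus strand) lost its MPS1i call in 2 such fits in each genotype. After IFNb in SCR 19 had calls on both, of which 16 rose, CD37 fell, and MIR11401 and SNORD19B moved in opposite directions. ADAR rose by 2.17 ± 0.45 (adjusted p = 0.00023) and 1.59 ± 0.14 (adjusted p = 2e-15) on its transcript and other strand after MPS1i, and WBP4 by 2.26 ± 0.45 (adjusted p = 0.00014) and 2.38 ± 0.27 (adjusted p = 9.9e-11). MIR7703, at PSME2, a proteasome activator subunit, rose after IFNb by 3.46 ± 0.61 (adjusted p = 5e-06) and 3.25 ± 0.28 (adjusted p = 4.4e-16). At SNORD19B the transcript-strand row fell with IFNb by 1.88 ± 0.44 (adjusted p = 0.00058) while the 8563-bp row of the other strand rose by 1.46 ± 0.21 (adjusted p = 2.7e-08). Across the 118 promoters the changes of the strands had a Pearson r of 0.39 and a Spearman rho of 0.42 for MPS1i in SCR, 0.29 and 0.29 for IFNb in SCR, and 0.13 and 0.20 for MPS1i in IFNAR1sg; promoters are not independent replicates, and both strands share their libraries.

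The median promoter composition of rows that rose in SCR lay near that of tested rows. RefSeq windows could be matched to 1192 tested transcript-strand rows, with a median GC content of 65% and a median ratio of observed to expected CpG of 0.798, against 58.7% and 0.579 over all 35116 windows. Rows that rose with MPS1i in SCR had medians of 62.7% and 0.749 (170 windows), and with IFNb 65% and 0.81 (337). The lower quartile of GC was 49% for those with MPS1i in SCR, against 55.7% for tested rows. Rows that rose with MPS1i in IFNAR1sg had lower medians, 59.7% and 0.666 (115). The 41 windows of rows that fell with IFNb had 51.7% and 0.297, and the 11 that fell with MPS1i 47.3% and 0.24. The motif capitalised in the sequences above was present in 18 of the 170 windows of rows higher after MPS1i in SCR (10.6%), 24 of 337 after IFNb (7.12%) and 11 of 115 after MPS1i in IFNAR1sg (9.57%). It was in 46 of the 1192 tested windows (3.86%). For other-strand rows that rose it was in 4 of 136 (2.94%) and 4 of 175 (2.29%) windows for MPS1i and IFNb in SCR, against 17 of 738 tested (2.3%).

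Other gene lists had few tested rows. Of all tested rows 9.5% rose after MPS1i and 15% after IFNb in SCR, where 18.1% fell, and 9.41% rose after MPS1i in IFNAR1sg; with so few rows the counts that follow are descriptions. Of 26 p53 target genes, 8 transcript-strand rows were tested; 3 rose after MPS1i in SCR, 3 in IFNAR1sg, and 4 rose and 1 fell after IFNb in SCR. Leaving out 1 library took these counts of rises to 1 (without SCR DMSO replicate 2 or SCR MPS1i replicate 1), 1 (without either IFNAR1sg DMSO library) and 2 (without SCR DMSO replicate 2 or SCR IFNb replicate 2). BBC3, the BH3-only protein PUMA, held 3 and 0 reads with DMSO and 18 and 17 with MPS1i in SCR, a ratio of 16.5 (5.21 to 84). Of 17 NF-kB target genes both tested transcript-strand rows rose after MPS1i and IFNb in SCR and after MPS1i in IFNAR1sg, though the last call for CXCL8 was lost without IFNAR1sg DMSO replicate 1 (adjusted p = 0.168) or IFNAR1sg MPS1i replicate 1 (0.0865). CXCL8, the neutrophil chemokine, measured 3.82 and 4.28 CPM with DMSO, 10.6 and 16.2 with MPS1i and 12.8 and 17.5 with IFNb in SCR (1.75 ± 0.31, adjusted p = 1.2e-05, and 1.90 ± 0.32, adjusted p = 1.4e-06). TNFAIP3, the A20 ubiquitin editor, rose by 2.64 ± 0.57 (adjusted p = 0.00044) and 2.42 ± 0.61 (adjusted p = 0.00137). Of 35 mitosis and cell cycle genes, 7 transcript-strand rows were tested, of which 1 rose after MPS1i and 4 after IFNb in SCR. The 1 was CCND1 (cyclin D1), whose call was lost without SCR DMSO replicate 1 (adjusted p = 0.317) or SCR MPS1i replicate 1 (0.293), and the 4 went to 2 without SCR DMSO replicate 1 or SCR IFNb replicate 1 and to 1 without SCR IFNb replicate 2. PCNA, the replication clamp, had a 12311-bp other-strand row that rose with IFNb by 1.51 ± 0.30 (adjusted p = 3.8e-05) and stood at 0.11 ± 0.32 after MPS1i (adjusted p = 0.835). Of 21 genes for degradation of upstream RNA and termination, 2 transcript-strand and 2 other-strand rows were tested, and only EXOSC2, an exosome subunit, rose after MPS1i in SCR (2.77 ± 0.59, adjusted p = 0.0003). Stress response genes (12 listed, 4 transcript-strand rows tested) had TRIB3 higher after IFNb in SCR (1.13 ± 0.23, adjusted p = 6.9e-05). Of 12 early response factors 1 transcript-strand row was tested, JUNB, which held 2 and 3 reads with DMSO and 8 and 8 with IFNb in SCR; this call was lost without SCR DMSO replicate 1 (adjusted p = 0.12) or either SCR IFNb library (0.0758 and 0.0753). Of 9 lung epithelial markers, KRT18 had an other-strand row, toward KRT8, that rose by 1.44 ± 0.22 with MPS1i (adjusted p = 4.2e-07) and 1.81 ± 0.22 with IFNb (adjusted p = 2.4e-10) in SCR.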

How the data were processed

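The deposited file is a table of counts, whole numbers of reads per stranded region as the authors made them, with no normalization; per the submitters' processing notes the tools were STAR, featureCounts, HOMER, cutadapt, Trim Galore and Trimmomatic, with the builds GRCh38 and hg38. Versions, settings and the counting of strands, overlaps and multiply mapped reads are not given in the sources used here. Every per-sample column was mapped to a sample by its title.

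Rows whose annotation starts with promoter-TSS were taken, leaving out those between the start of chromosome 21 and the limit. The strand of the named transcript came from the GENCODE transcript (72785 rows), the RefSeq promoter table (7557), the GENCODE gene of that symbol (2139) or distances in the table (1452). All rows of the table were tested together in edgeR 4.0.16 (R 4.3.3, limma 3.58.1) by its quasi-likelihood test, with TMM factors of 0.855 to 1.08. Low rows were removed by group with filterByExpr (count of at least 10, total of at least 15, in a proportion of 0.7). All 12 libraries were fitted with 1 coefficient per group. P-values were adjusted by Benjamini-Hochberg over 89111 rows and called under 0.05. Changes are log2 ± standard error (n = 2 libraries per group); the standard error, derived from the change and its F value, is imprecise for changes near 0. The labels do not say that libraries came from separate cultures, so p-values measure only the spread between these libraries. The script was tested on simulated data.

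Library totals of 3739443 to 7430687 reads leave most rows near 0; intervals for ratios are 95% exact binomial and cover counting error only. Named rows were, per SCR comparison and strand class, the 6 with the smallest p in each direction among calls without overlap of groups (1 per gene), every tested interferon-list row, up to 4 called rows of each other list, the 4 smallest p per interaction direction, and the 6 promoters with the clearest calls on both strands; 1 row chosen in this way is not reported here. The members and lists were chosen with earlier results of these data known. Alternatives included DESeq2 1.42.0, other scalings and filters, subsets of rows and leaving out each library; 2 were added after seeing the data, rows of at most 1100 bp and shares without mitochondrial rows.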

Additional observations from a re-analysis of the deposited data

Results flagged for a closer look

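The following named rows had a change that differed between genotypes by the interaction test (log2 change in SCR minus that in IFNAR1sg, edgeR adjusted p under 0.05); in all 51 values are listed, of which 25 held in every fit that left out 1 library and 26 were lost in at least 1.

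For IFNb, the positive values included MX2 5.05, GBP1P1 4.71, ISG15 3.43, IFIT3 3.03 (first row), SEC16B 3.02, IFITM3 2.85, OAS2 2.81, BATF2 2.72, WBP4 2.72 (other strand), MIR7703 2.70 (transcript strand), MLKL 2.54, SMTNL1 2.44, APOL6 2.28, BAG1 2.11, PARP9 2.09 and ADAR 1.28 (other strand). Further positive values were PPM1D 5.14, BBC3 3.90, EXOSC2 2.88, CXCL8 1.79, DCAKD 1.64, CPS1-IT1 1.47 (the row at 210616541), CAV2 1.17 and MDM2 0.82. At CYP27B1 both strands had positive values, 1.81 on the transcript strand and 2.06 on the other strand, and at SNORD19B the strands went apart, with -1.85 on the transcript strand and 1.02 on the other strand. Of these, the calls of ISG15, OAS2, IFITM3, MIR7703, GBP1P1, IFIT3, SEC16B, SMTNL1, PPM1D, BBC3, EXOSC2, MDM2, CYP27B1 (other strand) and SNORD19B (both strands) were lost in 1 or more fits that left out a library.

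Negative values for IFNb, a change lower in SCR than in IFNAR1sg, were found for FBXO17 (-4.02), MIR600HG (-2.97), ZBTB25 (-2.81), USP32P1 (-2.38), PDE7B-AS1 (-1.94), DLGAP1-AS2 (-1.90), RIMKLB (-1.74), FOSL2-AS1 (-1.73), SNORD32A (-1.55), LINC00602 (-1.30), KCNV2 (-1.25), LINC00641 (-1.14) and SNORD4A (-0.71). FDXR stood at -7.41 with 0 reads in both SCR IFNb libraries; that value depends on the prior count and is no measure of size. The calls of MIR600HG, PDE7B-AS1, SNORD32A, KCNV2, LINC00641 and SNORD4A were lost in 1 or more fits that left out a library.

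For MPS1i the 5 differences were TXN 1.41, KRT18 1.34, MIR103A1 1.00, BAG1 0.98 and MIR6873 -7.12, and all but that of TXN were lost in 1 or more fits that left out a library. The same rows differed for IFNb, with 1.12 for TXN, 1.22 for KRT18, 1.05 for MIR103A1 and -6.00 for MIR6873, the last lost in 3 fits that left out a library. Both differences use the same DMSO libraries, so the IFNb values are no separate evidence. KRT18, MIR103A1 and MIR6873 also differed between genotypes in DMSO. Both IFNAR1sg DMSO libraries held 0 reads of MIR6873, so its values depend on the prior count.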

How the results depend on the processing

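The direction of every named value was kept in all alternatives except 1: the IFIT3 row at 89331881 after MPS1i in IFNAR1sg, 2.78 with all libraries, ranged from -0.06 (without IFNAR1sg MPS1i replicate 2) to 3.68. Omitting the library factors shifted the median of all rows by -0.16 (MPS1i in SCR), -0.32 (IFNb in SCR) and -0.13 (MPS1i in IFNAR1sg). In the counts below the cause of a change was not tested, except that subsets hold fewer rows.

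After MPS1i in SCR, transcript-strand rows higher (248) were 102 with no filter, 136 with DESeq2, 60 without a gene on their strand, 113 sharing no exon base and 138 to 265 without 1 library; rows lower (29) were 16 with no filter, 16 with DESeq2, 1 without a gene and 12 to 33 without 1 library. Other-strand rows higher (182) were 76 with no filter, 91 with DESeq2, 91 without a gene, 108 at most 1100 bp long and 96 to 203 without 1 library; rows lower (22) were 36 without factors, 8 with no filter, 10 with DESeq2, 2 without a gene and 7 to 24 without 1 library. After IFNb in SCR, transcript-strand rows higher (481) were 303 without factors, 147 with no filter, 117 without a gene, 192 sharing no exon base and 308 to 517 without 1 library; rows lower (92) were 151 without factors, 58 with no filter, 45 with DESeq2, 9 without a gene and 41 to 94 without 1 library. Other-strand rows higher (260) were 173 without factors, 87 with no filter, 119 without a gene, 168 sharing no exon base, 137 at most 1100 bp long and 183 to 287 without 1 library; rows lower (56) were 101 without factors, 37 with no filter, 29 with DESeq2, 8 without a gene, 37 at most 1100 bp long and 30 to 53 without 1 library. Calls on the assigned strands after MPS1i in IFNAR1sg (396) were 167 with no filter, 174 with DESeq2, 151 without a gene, 258 at most 1100 bp long and 183 to 442 without 1 library; after IFNb (24) they were 14 with no filter, 9 without a gene, 11 sharing no exon base, 15 at most 1100 bp long and 12 to 38 without 1 library. Differences between genotypes for MPS1i (5) were 8 at a minimum count of 5, 1 with no filter, 1 without both SCR IFNb libraries, 1 with only the groups compared, 1 without a gene, 1 sharing no exon base and 2 to 20 without 1 library. Those for IFNb (311) were 62 with no filter, 84 without a gene, 159 sharing no exon base and 167 to 345 without 1 library. Those in DMSO (6) were 11 at a minimum count of 5, 1 with no filter, 3 without both SCR IFNb libraries, 0 with only the groups compared, 2 without a gene, 2 sharing no exon base and 1 to 33 without 1 library.

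Shares of rows sharing no exon base were 0.505%, 0.613% and 0.534% (SCR DMSO, MPS1i, IFNb) and 0.543%, 0.648% and 0.557% (IFNAR1sg) on the transcript strand, and 0.599%, 0.805%, 0.763%, 0.577%, 0.798% and 0.623% on the other; without mitochondrial rows the transcript strand had 1.28%, 1.54%, 1.71%, 1.41%, 1.51% and 1.53%.

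Same-numbered libraries did not deviate together over all tested rows (15 pairs of groups, correlations -0.05 to 0.08). Many tested rows hold few reads and counting noise lowers such correlations, so this check cannot exclude that the numbers pair libraries. A replicate block gave 37 calls for IFNb in IFNAR1sg, 12 and 327 for the MPS1i and IFNb differences and 14 in DMSO. Without the block these were 24, 5, 311 and 6.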
